A study of Homo sapiens with 6 samples.

Results

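The WNT ligands and Frizzled receptors were taken as every protein-coding gene named WNT or FZD in the unnormalized gene count table, with the co-receptors LRP5, LRP6, ROR1, ROR2 and RYK and the enzyme PORCN. The rule took 37 of the table's 63677 rows, which stood for 35 genes, since FZD9 and PORCN each had a second entry at 0 counts in every library. There were 19 WNT genes, 10 Frizzled genes and 6 others. All 35 had at least 1 count in some library, and 30 passed the filter on low counts and entered the test, of 19434 genes tested in all. Of these 30, 25 passed in the libraries of both states. WNT6, WNT10A and WNT11 passed only through their naive libraries, and WNT7B and WNT8B only through their primed libraries, so these 5 had to differ to be tested at all.

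Royan H6 (RH6) and Royan H5 (RH5) are lines of human embryonic stem cells. Each was grown as naive cells, a form of pluripotency close to the embryo before it implants, or as primed cells, which are closer to the epiblast afterwards. The labels describe the naive cells as induced with 2a2iL and then kept in 2iL medium, and the primed cells as kept in medium with bFGF; all grew on inactivated mouse embryonic fibroblasts. The groups were naive RH6 at passage 10 with 2 libraries, naive RH5 at passage 17 with 2 libraries, primed RH6 at passage 20 with 1 library and primed RH5 at passage 16 with 1 library. State and medium changed together and cannot be told apart. Passage number was lower in naive than in primed cells of RH6 and slightly higher in RH5, and its part in the results was not tested. Whether the paired naive libraries are of separate cultures is not stated in the labels, and the p-values then cover only the spread among these libraries, which may be technical.

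WNT proteins are secreted lipid-modified ligands. PORCN attaches the lipid, WLS carries the ligand to the cell surface, and the ligand binds a Frizzled receptor together with LRP5 or LRP6 to spare β-catenin from destruction, or with ROR1, ROR2 or RYK to signal without β-catenin. In human pluripotent cells, WNT signals are known to act on the balance between self-renewal and entry into the primitive streak, and media for naive cells often hold an inhibitor of GSK3, the kinase that marks β-catenin for destruction.

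The libraries held 13457979 to 14663982 counts, and 30053 to 31516 genes were detected in each. The markers of pluripotency summed to 4066 to 5732 CPM (read counts scaled to library size) in naive and 5910 to 6212 CPM in primed libraries. Of these 7 genes, SOX2, DPPA4 and SALL4 were called lower in naive cells in the test given below, and 0 were called higher. In that test 13.6% of all genes tested were lower and 12.1% higher. The labelled naive state was only partly matched by its 8 markers. DPPA5 and ARGFX were at or near 0 in every library, and TFCP2L1 and KLF4 were not called in the test given below. KLF17, DPPA3, DNMT3L and SUSD2 were called higher in naive cells, KLF17 at no more than 1.34 CPM. KLF17 and DNMT3L passed the filter through naive libraries alone, and of the 4 markers that passed in both states 2 were higher. Primed markers summed to 234 to 500 CPM in naive and 707 to 891 CPM in primed libraries, with CD24 at 0 in all.

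Over both lines, naive cells held more mRNA of most WNT ligands and less of the main Frizzled receptors. Of the 14 WNT genes tested, 9 were higher and 3 lower in naive cells, with a median log2 fold change of 2.06; 6 of the 9 and 1 of the 3 had passed the filter in both states, and the median over the 9 genes that did so was 1.77. Of the 10 Frizzled genes, 0 were higher and 3 lower, with a median of -0.50. Among the 5 co-receptors ROR2 was higher and ROR1 and LRP5 were lower, with a median of -0.25, and PORCN was not called. The test was edgeR's quasi-likelihood F-test with Benjamini-Hochberg adjustment over all genes tested, called at an adjusted p under 0.05, and every adjusted p below comes from it. In this comparison 25.7% of all genes tested were called, 12.1% higher and 13.6% lower, and the median log2 fold change of all genes tested was -0.0065. In bulk RNA, fewer cells of a type and less RNA per cell cannot be told apart. Counting every member, all 4 naive libraries lay above both primed libraries for 10 of 19 WNT genes, 1 of 10 Frizzled genes and 2 of 5 co-receptors, and below both for 3, 4 and 3 of them in that order. Among the 14 WNT genes tested, 9 lay above and 3 below, and every Frizzled gene and co-receptor was tested. Among all genes tested 21.5% lay above and 22.8% below. WNT6, WNT10A and WNT11 among the 9, and WNT7B and WNT8B among the 3, passed the filter through 1 state alone. At an unadjusted p under 0.05, 1 Frizzled gene was higher in naive cells, FZD10, and DESeq2 and limma-voom each called 1 Frizzled gene higher.

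The counts by class moved with single libraries, as did the count of all genes, which was 4996 with every library, 3017 to 3367 without 1 naive library and 6507 without either primed library. Ligands called higher numbered 6 without naive RH6 replicate 1 or naive RH5 replicate 1, 7 without the other naive library of either line or primed RH5, and 10 without primed RH6. Ligands called lower numbered 2 to 3, but 5 without primed RH5. Frizzled genes called lower numbered 3 or 4, but 6 without primed RH5, and those called higher numbered 2 without primed RH6 and 1 without primed RH5. With both naive libraries of a line added together, 6 of the 18 calls were left and 1092 of all genes were called; the other 12 members then missed the threshold, by least for WNT7B and by most for LRP5 (adjusted p = 0.328). This setting matters because the duplicates may not be separate cultures. The counts of co-receptors rest on the calls of ROR2 and LRP5, which are given with those genes. Without a primed library, the fit over both lines holds no state difference for the line of that library. Here and below it then gives the state effect of the other line alone, with its spread from the naive duplicates. It is therefore another comparison and not a check of the estimate over both lines.

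**Figure D1:**
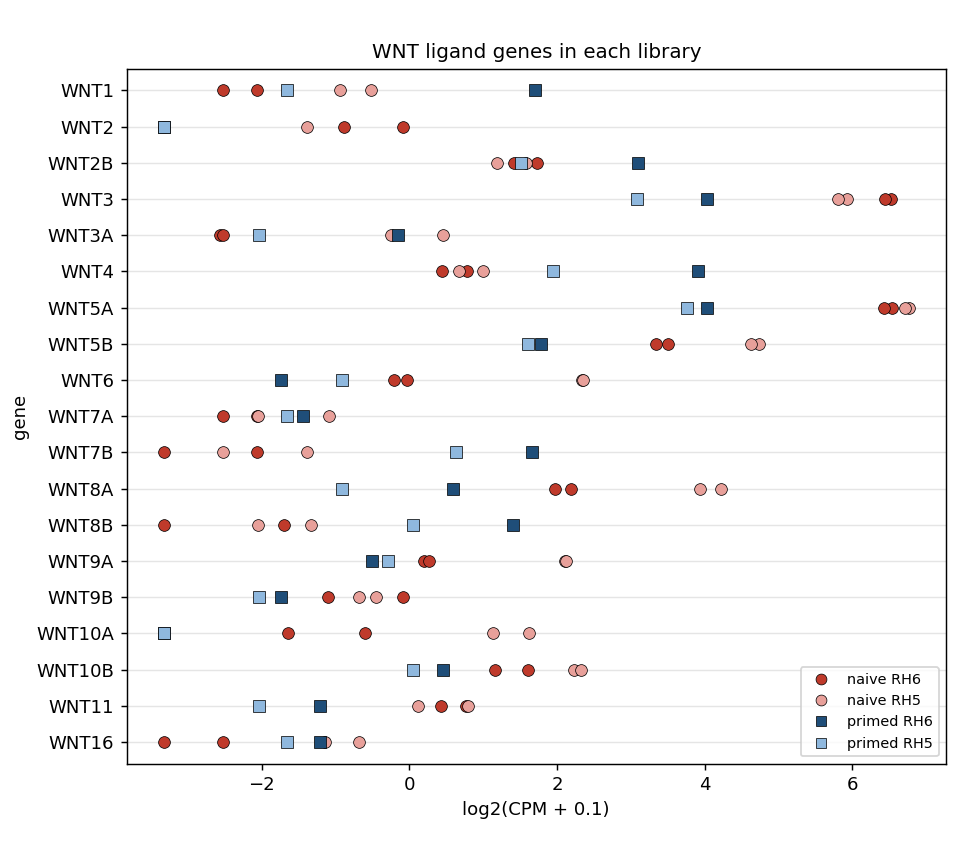
CPM of each WNT gene (y axis) in each library on a log2 axis after adding 0.1 CPM (x axis), with naive libraries as circles and primed libraries as squares. The naive libraries lie to the right of both primed libraries for WNT3 and WNT5A, and to the left for WNT4 and WNT7B.

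Of the 30 members tested, 6 were called under each of 13 alternative settings of the main comparison, namely WNT3, WNT5A, WNT5B, FZD5, FZD8 and ROR1. The settings without a primed library are among the 13 and give the state effect of the other line alone. The sequence upstream of a RefSeq start of each is shown, because these genes carry the state difference that depended least on the processing. The sequences are from RefSeq on GRCh38.p14, which is not the build of the counts. They are written 5′ to 3′ on the gene's strand, with every CG dinucleotide, the site of DNA methylation, in capitals. Each covers the 250 bases before the start, less any base in an exon of GENCODE 29, which shortens WNT5B to 216 and WNT3 to 182 bases. The bases left out are those next to the start, so WNT5B ends 34 bases and WNT3 68 bases short of it. WNT5A and WNT5B each have a further RefSeq start whose window lies wholly within exons and is not printed. The bases that follow the RefSeq start used for WNT3 and WNT5B occur in a GENCODE 29 transcript of the gene. Those of WNT5A, FZD5, FZD8 and ROR1 do not, so these 4 starts rest on RefSeq alone. ROR1 lies at chr1:63773767-63774016 on the plus strand, FZD5 at chr2:207769907-207770156 on the minus strand and WNT5A at chr3:55481399-55481648 on the minus strand. FZD8 lies at chr10:35642297-35642546 on the minus strand, WNT5B at chr12:1628981-1629196 on the plus strand and WNT3 at chr17:46818761-46818942 on the minus strand.
WNT3: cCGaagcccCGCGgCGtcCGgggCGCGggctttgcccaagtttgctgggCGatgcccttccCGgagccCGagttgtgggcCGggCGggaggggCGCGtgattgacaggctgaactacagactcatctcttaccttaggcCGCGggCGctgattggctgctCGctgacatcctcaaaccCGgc
WNT5A: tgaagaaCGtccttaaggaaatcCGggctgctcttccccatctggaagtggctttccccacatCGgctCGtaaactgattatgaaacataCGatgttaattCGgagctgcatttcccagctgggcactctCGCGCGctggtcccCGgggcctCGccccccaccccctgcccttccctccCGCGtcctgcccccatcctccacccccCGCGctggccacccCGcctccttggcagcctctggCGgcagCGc
WNT5B: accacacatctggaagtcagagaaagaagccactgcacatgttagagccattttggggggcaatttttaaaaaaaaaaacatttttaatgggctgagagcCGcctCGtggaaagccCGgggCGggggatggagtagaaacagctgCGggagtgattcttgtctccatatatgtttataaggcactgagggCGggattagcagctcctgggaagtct
FZD5: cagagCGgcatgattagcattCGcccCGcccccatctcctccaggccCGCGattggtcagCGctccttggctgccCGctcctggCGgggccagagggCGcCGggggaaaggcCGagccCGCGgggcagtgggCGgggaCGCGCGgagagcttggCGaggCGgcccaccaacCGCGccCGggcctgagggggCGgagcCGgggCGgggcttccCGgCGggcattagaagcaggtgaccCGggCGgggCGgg
FZD8: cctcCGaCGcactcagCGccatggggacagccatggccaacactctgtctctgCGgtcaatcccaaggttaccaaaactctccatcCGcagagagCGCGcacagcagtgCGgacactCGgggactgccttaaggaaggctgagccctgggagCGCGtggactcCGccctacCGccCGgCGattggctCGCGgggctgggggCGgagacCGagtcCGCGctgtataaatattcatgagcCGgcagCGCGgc
ROR1: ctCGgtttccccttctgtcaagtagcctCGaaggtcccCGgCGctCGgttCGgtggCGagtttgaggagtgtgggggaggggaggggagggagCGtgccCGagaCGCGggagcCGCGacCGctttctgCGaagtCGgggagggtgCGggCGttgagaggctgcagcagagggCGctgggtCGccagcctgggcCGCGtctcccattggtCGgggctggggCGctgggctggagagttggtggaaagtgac

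The printed stretches held 19 CG dinucleotides for WNT3, 18 for WNT5A, 6 for WNT5B, 30 for FZD5, 24 for FZD8 and 24 for ROR1. The stretches differ in length, and the counts belong to the windows shown. The full window of the further start held 10 CG dinucleotides for WNT5B and 14 for WNT5A. Promoter windows were found for 26 of the 35 members, in 30 windows of 250 bases, and their median GC content was 72.2% against 58% over all 35116 human promoters of the table. Their median number of CG dinucleotides was 27.5, with a range of 3 to 44, against 11 over all promoters. None of the 30 windows matched, on either strand, the TCF and LEF cores CTTTGAT or CTTTGTT, the NR5A2 motifs TCAAGGTCA or TCAAGGCCA, or the retinoic acid receptor repeats, in which AGGTCA or AGTTCA recurs after a spacer of 5 bases. These were found in 2.26%, 4.5%, 0.319%, 0.273%, 0.00285% and 0.00854% of all promoters in that order. The absence of a match says only that these letters were not in these windows.

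WNT3 (ENSG00000108379), a ligand that acts through β-catenin and is required for the primitive streak in mice, had 92.1 and 86.7 CPM in naive RH6 and 60.7 and 56.0 CPM in naive RH5, against 16.2 CPM in primed RH6 and 8.38 CPM in primed RH5. All 4 naive libraries were above both primed libraries, and within each state RH6 was above RH5. WNT3 averaged 73.9 ± 18.2 CPM in naive (SD, n = 4) and 12.3 CPM in primed cells (log2 fold change 2.62 ± 0.14, SE, adjusted p = 9.66e-05). WNT5A (ENSG00000114251), the ligand best known for signalling through ROR receptors, had 92.7 and 85.8 CPM in naive RH6 and 108 and 105 CPM in naive RH5, against 16.2 CPM in primed RH6 and 13.5 CPM in primed RH5. It averaged 98 ± 10.6 CPM in naive (SD, n = 4) and 14.8 CPM in primed cells (log2 fold change 2.71 ± 0.16, SE, adjusted p = 1.19e-04). The naive libraries of WNT5A lay close together and far above the primed ones. Divided by exon length, to compare genes, WNT3 averaged 17.1 CPM per kilobase in naive and 2.83 in primed cells. WNT5A averaged 13.3 CPM per kilobase in naive and 2.01 in primed cells. These were the leading WNT genes per kilobase in naive cells.

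WNT5B (ENSG00000111186), the close relative of WNT5A, had 11.3 and 10.1 CPM in naive RH6 and 26.5 and 24.6 CPM in naive RH5, against 3.34 CPM in primed RH6 and 2.96 CPM in primed RH5. Naive RH5 was highest, naive RH6 next and the primed libraries lowest, with no overlap between states. The log2 fold change was 2.36 ± 0.34 (SE, adjusted p = 0.00333) over both lines. WNT8A (ENSG00000061492), a ligand of the early embryo that acts through β-catenin, had 4.48 and 3.82 CPM in naive RH6 and 15.2 and 18.5 CPM in naive RH5, against 1.4 CPM in primed RH6 and 0.433 CPM in primed RH5. The states did not overlap, but the naive level of WNT8A depended on the line. The change was 3.08 ± 0.73 on the log2 scale (SE, adjusted p = 0.0224) over both lines, and the adjusted p was 0.0550 and 0.0516 without naive RH6 replicate 1 or 2 and 0.0578 without naive RH5 replicate 1. Without primed RH5 the log2 fold change of WNT8A was 1.56 and without primed RH6 it was 5.25.

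WNT6 (ENSG00000115596) had 0.769 and 0.881 CPM in naive RH6 and 4.94 and 4.99 CPM in naive RH5, against 0.201 CPM in primed RH6 and 0.433 CPM in primed RH5. WNT10A (ENSG00000135925) had 8 and 3 counts in naive RH6 and 42 and 28 counts in naive RH5, against 0 counts in both primed libraries. WNT6 and WNT10A lie next to each other in the genome with no protein-coding gene between them, both were highest in naive RH5, and both act through β-catenin in other tissues. WNT6 was higher in naive cells with a log2 fold change of 2.99 ± 0.45 (SE, adjusted p = 0.00408), and of 1.99 without primed RH5. The WNT6 call was lost with no line term (adjusted p = 0.0831) and with the duplicates added together (adjusted p = 0.0630). WNT10A was at least 14.0-fold higher in naive cells, set against a floor of 3 counts over both primed libraries (adjusted p = 0.00681), and its call was lost under the same settings (adjusted p = 0.0583 with no line term and 0.0547 with duplicates added). WNT11 (ENSG00000085741), a ligand of convergent extension movements in frogs and fish, had 23 and 17 counts in naive RH6 and 14 and 22 counts in naive RH5, against 5 counts in primed RH6 and 2 counts in primed RH5. WNT11 was thus low in every library, but its naive libraries did not overlap the primed ones, and the states differed by 2.48 ± 0.52 on the log2 scale (SE, adjusted p = 0.0142, or 0.0953 with duplicates added). All 3 genes passed the filter on low counts through naive libraries alone.

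WNT9A (ENSG00000143816) had 1.05 and 1.10 CPM in naive RH6 and 4.23 and 4.25 CPM in naive RH5, against 0.602 CPM in primed RH6 and 0.722 CPM in primed RH5. WNT10B (ENSG00000169884), which acts through β-catenin in bone and fat precursors, had 2.94 and 2.13 CPM in naive RH6 and 4.59 and 4.92 CPM in naive RH5, against 1.27 CPM in primed RH6 and 0.939 CPM in primed RH5. For both genes the naive RH6 libraries stood nearer to the primed ones than naive RH5 did. On the log2 scale naive cells differed from primed cells by 1.77 ± 0.45 (SE, adjusted p = 0.0297) for WNT9A and 1.63 ± 0.39 (SE, adjusted p = 0.0230) for WNT10B. These calls were not stable. Without naive RH6 replicate 1 or 2, naive RH5 replicate 1 or 2, or primed RH5, the adjusted p of WNT9A was 0.0562, 0.0705, 0.0864, 0.0761 and 0.237 in that order. For WNT10B it was 0.0681 without naive RH6 replicate 1, 0.0666 and 0.0581 without naive RH5 replicate 1 or 2, and 0.0785 without primed RH5. Without primed RH5 the log2 fold change was 0.83 for WNT9A and 0.99 for WNT10B.

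A second group of ligands ran the other way and was highest in primed RH6. WNT4 (ENSG00000162552), known for its part in kidney and gonad development, had 1.26 and 1.62 CPM in naive RH6 and 1.90 and 1.49 CPM in naive RH5, against 15 CPM in primed RH6 and 3.76 CPM in primed RH5. WNT7B (ENSG00000188064) had 2 and 0 counts in naive RH6 and 4 and 1 counts in naive RH5, against 46 counts in primed RH6 and 20 counts in primed RH5. WNT8B (ENSG00000075290), a ligand of the embryonic forebrain, had 3 and 0 counts in naive RH6 and 2 and 4 counts in naive RH5, against 38 counts in primed RH6 and 13 counts in primed RH5. For all 3 genes every naive library lay below both primed libraries. Naive cells differed from primed cells by -2.39 ± 0.48 on the log2 scale (SE, adjusted p = 0.0116) for WNT4, -4.03 ± 0.70 (SE, adjusted p = 0.00723) for WNT7B and -3.28 ± 0.73 (SE, adjusted p = 0.0182) for WNT8B. WNT7B and WNT8B passed the filter through primed libraries alone. The call of WNT4 was lost without naive RH6 replicate 2 (adjusted p = 0.0659), and its log2 fold change was -1.14 without primed RH6. That of WNT8B was lost without naive RH6 replicate 1, naive RH5 replicate 1 or primed RH6 (adjusted p = 0.0674, 0.0533 and 0.0941 in that order), and its log2 fold change was -2.06 without primed RH6.

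The markers of neural cells moved with this group. Their 7 genes summed to 3.28 to 3.92 CPM in naive libraries, against 111 CPM in primed RH6 and 30.1 CPM in primed RH5. Of the 7, 6 reached 1 CPM in some library, while NEUROG2 stayed near 0. In naive cells 5 were called lower, PAX6 and SIX3 among them. SIX3 and RAX passed the filter through primed libraries alone, and of the 4 genes that passed in both states 3 were called lower. Like WNT4, WNT7B and WNT8B, the neural markers in sum were highest in primed RH6, and their part in the result was not tested.

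WNT2B (ENSG00000134245) had 3.22 and 2.57 CPM in naive RH6 and 2.19 and 2.91 CPM in naive RH5, against 8.43 CPM in primed RH6 and 2.74 CPM in primed RH5. WNT3A (ENSG00000154342), the ligand most used to activate β-catenin in culture, had 1 and 1 counts in naive RH6 and 18 and 10 counts in naive RH5, against 12 counts in primed RH6 and 2 counts in primed RH5. The states overlapped for both genes, and neither was called over both lines. The log2 fold change was -0.91 ± 0.36 (SE, adjusted p = 0.106) for WNT2B and -0.25 ± 1.13 (SE, adjusted p = 0.896) for WNT3A. Of the exon bases of WNT2B, 21.2% overlap ST7L on the opposite strand in GENCODE 29, and since the strand setting of the counting is not given in the sources used here, reads of both genes cannot be told apart.

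The 5 untested WNT genes had few counts. WNT1 (ENSG00000125084), a ligand of the midbrain, had 2 and 1 counts in naive RH6 and 6 and 8 counts in naive RH5, against 47 counts in primed RH6 and 3 counts in primed RH5. WNT2 (ENSG00000105989) had 12 and 6 counts in naive RH6 and 4 and 0 counts in naive RH5, against 0 counts in both primed libraries, at least 3.80-fold higher in naive cells against the same floor. WNT1 was therefore high in the primed RH6 library alone, and WNT2 was highest in naive RH6. With no filter on low counts, WNT1 was called lower (adjusted p = 0.0411) and WNT2 higher (adjusted p = 0.0323) in naive cells over both lines. WNT9B had 12, 5, 9 and 7 counts in the naive libraries, against 3 in primed RH6 and 2 in primed RH5. WNT7A had 2, 1, 2 and 5 counts in the naive libraries, against 4 in primed RH6 and 3 in primed RH5, and WNT16 had 0, 1, 5 and 7 counts in the naive libraries, against 5 in primed RH6 and 3 in primed RH5. At these counts no difference was detectable for WNT7A and WNT16.

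**Figure D2:**
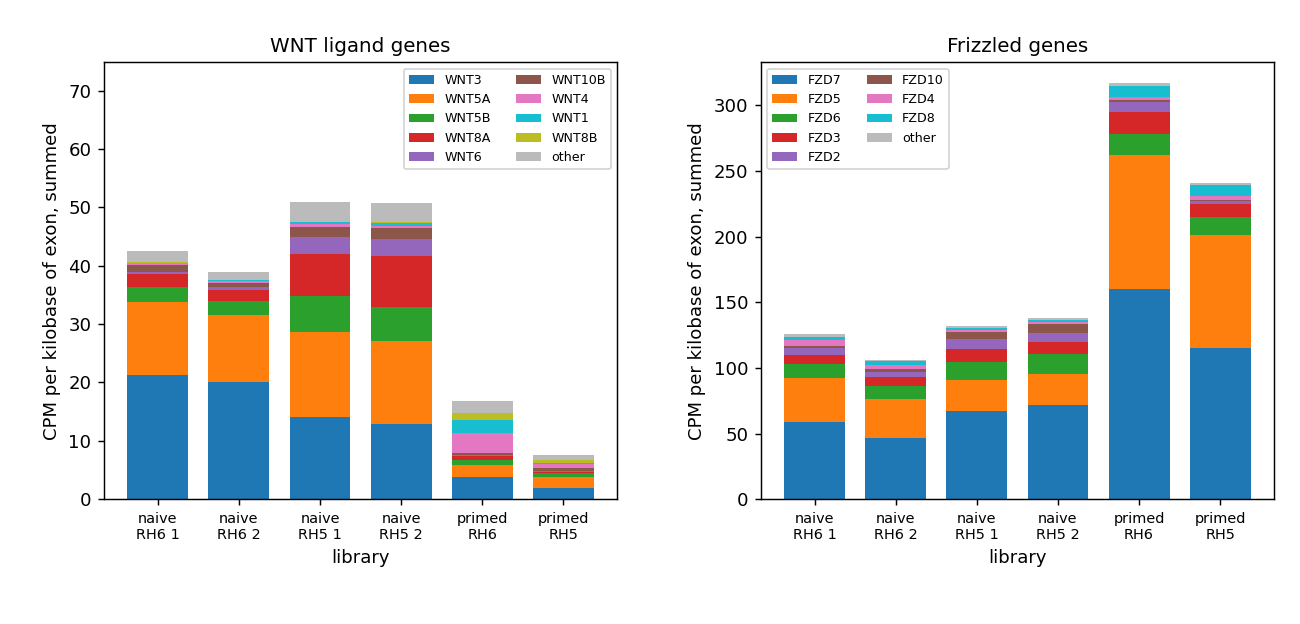
Summed CPM per kilobase of exon (y axis) of the WNT genes and of the Frizzled genes in each library (x axis), split by gene. The WNT bars are tallest in naive libraries and the Frizzled bars in primed libraries.

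Summed over the family, WNT mRNA came to 214 and 197 CPM in naive RH6 and 236 and 230 CPM in naive RH5, against 73.3 CPM in primed RH6 and 37.3 CPM in primed RH5. The mean was 219 ± 17.3 CPM in naive (SD, n = 4) and 55.3 CPM in primed cells, a ratio of 3.96. The make-up of this pool is described for sets of genes picked with their levels known, so their shares are no test of a change. Per kilobase of exon, WNT3 and WNT5A together made up 79.5% and 81.4% of WNT mRNA in naive RH6 and 56.3% and 53.6% in naive RH5, against 35.1% in primed RH6 and 49.1% in primed RH5. WNT1, WNT4, WNT7B and WNT8B together made up 1.20% and 1.06% in naive RH6 and 1.68% and 1.83% in naive RH5, against 44.2% in primed RH6 and 22.5% in primed RH5. The shares describe these libraries and were not tested.

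FZD5 and FZD7, the most abundant Frizzled genes per kilobase, and the less abundant FZD8 were lower in naive cells. FZD5 (ENSG00000163251), a receptor known for its part in yolk sac and eye development in mice, had 222 and 199 CPM in naive RH6 and 155 and 159 CPM in naive RH5, against 689 CPM in primed RH6 and 573 CPM in primed RH5. It averaged 184 ± 32.4 CPM in naive (SD, n = 4) and 631 CPM in primed cells (log2 fold change -1.79 ± 0.10, SE, adjusted p = 1.02e-04). FZD7 (ENSG00000155760), described as the leading Frizzled gene of human embryonic stem cells, had 228 and 181 CPM in naive RH6 and 260 and 277 CPM in naive RH5, against 617 CPM in primed RH6 and 446 CPM in primed RH5. It averaged 237 ± 42.1 CPM in naive (SD, n = 4) and 531 CPM in primed cells (log2 fold change -1.18 ± 0.20, SE, adjusted p = 0.00613), with a log2 fold change of -0.73 without primed RH6. The FZD7 call was lost once the duplicates were added together (adjusted p = 0.0651). For both receptors the naive libraries lay well below both primed libraries. FZD8 (ENSG00000177283), a relative of FZD5, had 9.58 and 10.1 CPM in naive RH6 and 7.69 and 6.48 CPM in naive RH5, against 33.8 CPM in primed RH6 and 32.2 CPM in primed RH5. It changed by -1.98 ± 0.15 on the log2 scale (SE, adjusted p = 3.46e-04), and the lines differed little within each state.

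**Figure D3:**
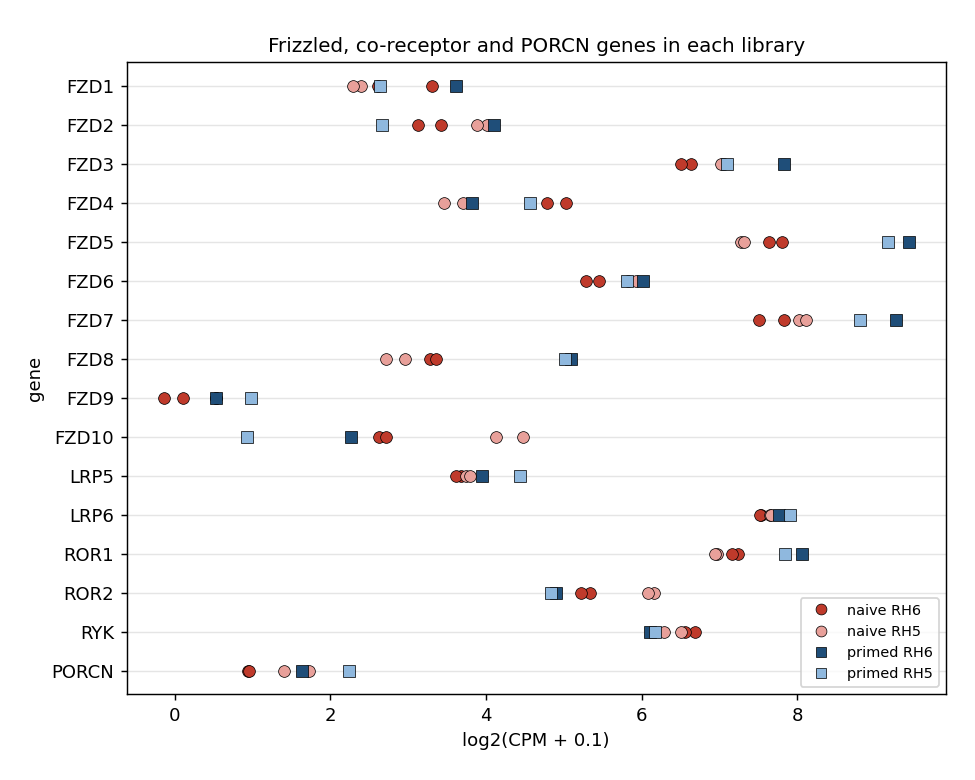
CPM of each Frizzled, co-receptor and PORCN gene (y axis) in each library on a log2 axis after adding 0.1 CPM (x axis), with naive libraries as circles and primed libraries as squares. FZD5, FZD7, FZD8 and ROR1 have both primed libraries to the right of all naive ones, and ROR2 has them to the left.

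The other 7 Frizzled genes were not called over both lines. FZD3 (ENSG00000104290), a receptor of axon guidance and planar polarity, had 99.1 and 90.8 CPM in naive RH6 and 134 and 130 CPM in naive RH5, against 226 CPM in primed RH6 and 137 CPM in primed RH5. FZD6 (ENSG00000164930), which shares that role, had 43.7 and 38.8 CPM in naive RH6 and 56.4 and 60.5 CPM in naive RH5, against 64.5 CPM in primed RH6 and 55.9 CPM in primed RH5. FZD10 (ENSG00000111432) had 6.09 and 6.46 CPM in naive RH6 and 17.4 and 22.1 CPM in naive RH5, against 4.68 CPM in primed RH6 and 1.81 CPM in primed RH5. FZD10 was the lone Frizzled gene with every naive library above both primed libraries. The log2 fold change was -0.69 ± 0.24 (SE, adjusted p = 0.0786) for FZD3, -0.30 ± 0.17 (SE, adjusted p = 0.238) for FZD6 and 1.68 ± 0.63 (SE, adjusted p = 0.0954) for FZD10. Without primed RH5, FZD3 was called (log2 fold change -1.25), and without primed RH6, FZD10 was called (log2 fold change 3.44).

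FZD2 (ENSG00000180340) had 10.6 and 8.59 CPM in naive RH6 and 16 and 14.7 CPM in naive RH5, against 17.1 CPM in primed RH6 and 6.21 CPM in primed RH5. FZD4 (ENSG00000174804), the receptor of norrin in retinal vessels, had 32.5 and 27.5 CPM in naive RH6 and 12.9 and 10.9 CPM in naive RH5, against 14.0 CPM in primed RH6 and 23.5 CPM in primed RH5. The states overlapped for both genes. The log2 fold change over both lines was 0.095 ± 0.44 (SE, adjusted p = 0.898) for FZD2 and -0.041 ± 0.43 (SE, adjusted p = 0.956) for FZD4. FZD1 had 4.77 to 9.79 CPM in naive libraries, against 12.1 CPM in primed RH6 and 6.14 CPM in primed RH5, and FZD9 had 0.808 to 1.34 CPM in naive libraries, against 1.34 CPM in primed RH6 and 1.88 CPM in primed RH5. Their log2 fold changes were -0.47 ± 0.24 for FZD1 (SE, adjusted p = 0.194) and -0.53 ± 0.31 for FZD9 (SE, adjusted p = 0.252). Of the exon bases of FZD4, 18.9% overlap PRSS23 on the opposite strand in GENCODE 29, so its counts may hold reads of both genes.

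Summed Frizzled mRNA came to 662 and 570 CPM in naive RH6 and 666 and 686 CPM in naive RH5, against 1679 CPM in primed RH6 and 1283 CPM in primed RH5, a ratio of 0.436 of the means. Per kilobase of exon FZD7 averaged 61.3 CPM in naive and 138 in primed cells, and FZD5 averaged 27.4 in naive and 94 in primed cells. Together FZD5 and FZD7 made up 73.4%, 72.1%, 68.6% and 69.3% of Frizzled mRNA per kilobase in the 4 naive libraries, against 82.8% in primed RH6 and 83.4% in primed RH5. The next genes were FZD6, at 12.3 CPM per kilobase in naive and 14.8 in primed cells, and FZD3, at 8.22 in naive and 13.2 in primed cells. The summed WNT and Frizzled mRNA thus ran in opposite directions between the states in both lines, with ratios of 2.81 for WNT and 0.367 for Frizzled genes in RH6 and of 6.24 for WNT and 0.527 for Frizzled genes in RH5.

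Among the co-receptors the 2 ROR genes diverged. ROR1 (ENSG00000185483), a receptor for WNT5A, had 151 and 142 CPM in naive RH6 and 125 and 123 CPM in naive RH5, against 267 CPM in primed RH6 and 230 CPM in primed RH5. The change was -0.88 ± 0.09 on the log2 scale (SE, adjusted p = 9.11e-04), with every naive library below both primed ones. ROR2 (ENSG00000169071), also a receptor for WNT5A, had 40.3 and 37.1 CPM in naive RH6 and 71.1 and 67.6 CPM in naive RH5, against 29.8 CPM in primed RH6 and 28.5 CPM in primed RH5. Its naive libraries were all above the primed ones, with naive RH5 highest, with a log2 difference of 0.81 ± 0.21 (SE, adjusted p = 0.0302). The ROR2 call was lost without naive RH6 replicate 1 or 2, naive RH5 replicate 1 or 2, or primed RH5, with an adjusted p of 0.0676, 0.0528, 0.0794, 0.0657 and 0.0533 in that order, and without primed RH5 its log2 fold change was 0.37. Per kilobase, the ratio of ROR2 to ROR1 mRNA was 0.309 and 0.301 in naive RH6 and 0.655 and 0.634 in naive RH5, against 0.129 in primed RH6 and 0.143 in primed RH5. ROR1 was therefore the more abundant of the pair in every library, and by more in primed cells.

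LRP6, one of the paired co-receptors that pass the signal to β-catenin, had 183 to 202 CPM in naive libraries, against 218 CPM in primed RH6 and 239 CPM in primed RH5. LRP5 had 12.1 to 13.8 CPM in naive libraries, against 15.4 CPM in primed RH6 and 21.5 CPM in primed RH5. Both were below the primed libraries in every naive library, by small amounts. On the log2 scale the difference was -0.25 ± 0.09 (SE, adjusted p = 0.0817) for LRP6 and -0.49 ± 0.15 (SE, adjusted p = 0.0496) for LRP5. The LRP5 call was lost without naive RH6 replicate 1 or 2 (adjusted p = 0.0862 and 0.115), without naive RH5 replicate 1 or 2 (adjusted p = 0.160 and 0.140) and without primed RH5 (adjusted p = 0.189), where its log2 fold change was -0.31. It was also lost with DESeq2 (adjusted p = 0.0607), RLE factors (0.0539), no low-count filter (0.104), no line term (0.0913) and duplicates added together (0.328), that is in 10 of 13 settings. RYK, a receptor with an inactive kinase domain, had 77.7 to 103 CPM in naive libraries, against 69.0 CPM in primed RH6 and 71.9 CPM in primed RH5 (log2 fold change 0.37 ± 0.12, SE, adjusted p = 0.0684). PORCN had 1.82 to 3.20 CPM in naive libraries, against 3.01 CPM in primed RH6 and 4.62 CPM in primed RH5 (log2 fold change -0.70 ± 0.24, SE, adjusted p = 0.0732).

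Within each line alone, where the naive duplicates alone give the spread and the single primed library is taken to vary as much as they do, 21 of the 30 members were called in RH6 and 21 in RH5. Of all genes tested, 33.6% were called in RH6 and 33.5% in RH5. Within RH6, 9 members were higher and 12 lower in naive cells, and in RH5, 13 were higher and 8 lower. WNT3, WNT5A, WNT5B, WNT6, WNT8A, WNT10A and WNT11 were called higher in each line, and FZD5, FZD7, FZD8, ROR1, WNT4 and WNT7B lower in each line. Over all genes, 8.26% were called higher and 9.57% lower in each line. WNT6, WNT10A and WNT11 passed the filter on low counts through naive libraries alone, and WNT7B and WNT8B through primed libraries alone. These genes had to differ between the states to be tested, so their calls within a line are no added support. A further 10 members were called in 1 line, and the share of all genes called in 1 line was not counted. They were FZD3, FZD6, RYK, WNT2B and WNT8B in RH6, and FZD10, LRP5, ROR2, WNT9A and WNT10B in RH5. In RH6 the log2 fold change was -1.54 for WNT2B and 0.52 for RYK. FZD1, FZD9, LRP6 and PORCN were called in neither line. FZD2, FZD4 and WNT3A were called in opposite directions, as were 1.57% of all genes tested. In RH6 the call of WNT6 was lost without any 1 of the naive libraries, with adjusted p from 0.0502 to 0.0985, and those of WNT10A and WNT11 without naive RH6 replicate 1 (adjusted p = 0.142 and 0.0895). In RH5, leaving out naive RH5 replicate 2 ended the call of WNT4 (adjusted p = 0.0749). The per-line comparisons use the same libraries as the estimate over both lines.

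The state effect was tested for a difference between the lines, RH6 minus RH5. The difference was called for 11 of the 30 members, 1 with a positive and 10 with a negative difference, while it was called for 12% of all genes tested, 5.86% with a positive and 6.16% with a negative difference. On the log2 scale WNT8A changed by 1.56 in RH6 and by 5.25 in RH5, a difference of -3.69 ± 0.59 (SE, adjusted p = 0.00306). WNT5B changed by 1.67 in RH6 and by 3.10 in RH5, a difference of -1.43 ± 0.33 (SE, adjusted p = 0.0190). Both ligands had the same direction in each line, and the larger change was in RH5. FZD10 had a log2 fold change of 0.42 in RH6, where it was not called (adjusted p = 0.231), and of 3.44 in RH5 (adjusted p = 1.19e-05), a difference of -3.02 ± 0.39 (SE, adjusted p = 9.03e-04). ROR2 had 0.37 in RH6, where it was not called (adjusted p = 0.0542), and 1.28 in RH5 (adjusted p = 6.67e-05), and the test of the difference gave an adjusted p of 0.0113.

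For WNT4, FZD3, FZD6 and FZD7, naive RH6 cells were further below their primed library than naive RH5 cells. WNT4 changed by -3.38 in RH6 and by -1.14 in RH5 on the log2 scale (adjusted p of the difference = 0.00959). FZD3 had -1.25 in RH6 and -0.052 in RH5 (adjusted p of the difference = 0.00117). FZD7 had -1.59 in RH6 and -0.73 in RH5 (adjusted p of the difference = 0.0208), and FZD6 had -0.65 in RH6 and 0.064 in RH5 (adjusted p of the difference = 0.0335). The FZD6 difference was not called without naive RH5 replicate 2 (adjusted p = 0.0508). Each primed value rests on 1 library.

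FZD2, FZD4 and WNT3A had log2 fold changes of opposite sign in the lines, each set against 1 primed library, so that a difference between the lines and variation between single primed libraries cannot be told apart. FZD2 was lower by -0.83 on the log2 scale in RH6 (adjusted p = 0.00694) but higher by 1.30 in RH5 (adjusted p = 0.00111), a difference of -2.14 ± 0.29 (SE, adjusted p = 0.00111). FZD4 was higher by 1.10 in RH6 (adjusted p = 0.00106) but lower by -0.98 in RH5 (adjusted p = 0.00186), a difference of 2.08 ± 0.25 (SE, adjusted p = 6.47e-04), and was the 1 member with a positive difference. WNT3A was lower by -3.33 in RH6 (adjusted p = 0.0163) but higher by 2.73 in RH5 (adjusted p = 0.0330), a difference of -6.07 ± 1.24 (SE, adjusted p = 0.0110), at 1 to 18 counts per library and 12 against 2 counts in primed RH6 and primed RH5. The WNT3A call in RH5 ended without naive RH5 replicate 1 (adjusted p = 0.130) and with DESeq2 (adjusted p = 0.0638), and the FZD2 call in RH6 ended with DESeq2 (adjusted p = 0.0631). By contrast the difference was not called for WNT3 (-0.34 ± 0.21, SE, adjusted p = 0.344) or WNT5A (-0.52 ± 0.19, SE, adjusted p = 0.112), which does not show that the lines acted alike.

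**Figure D4:**
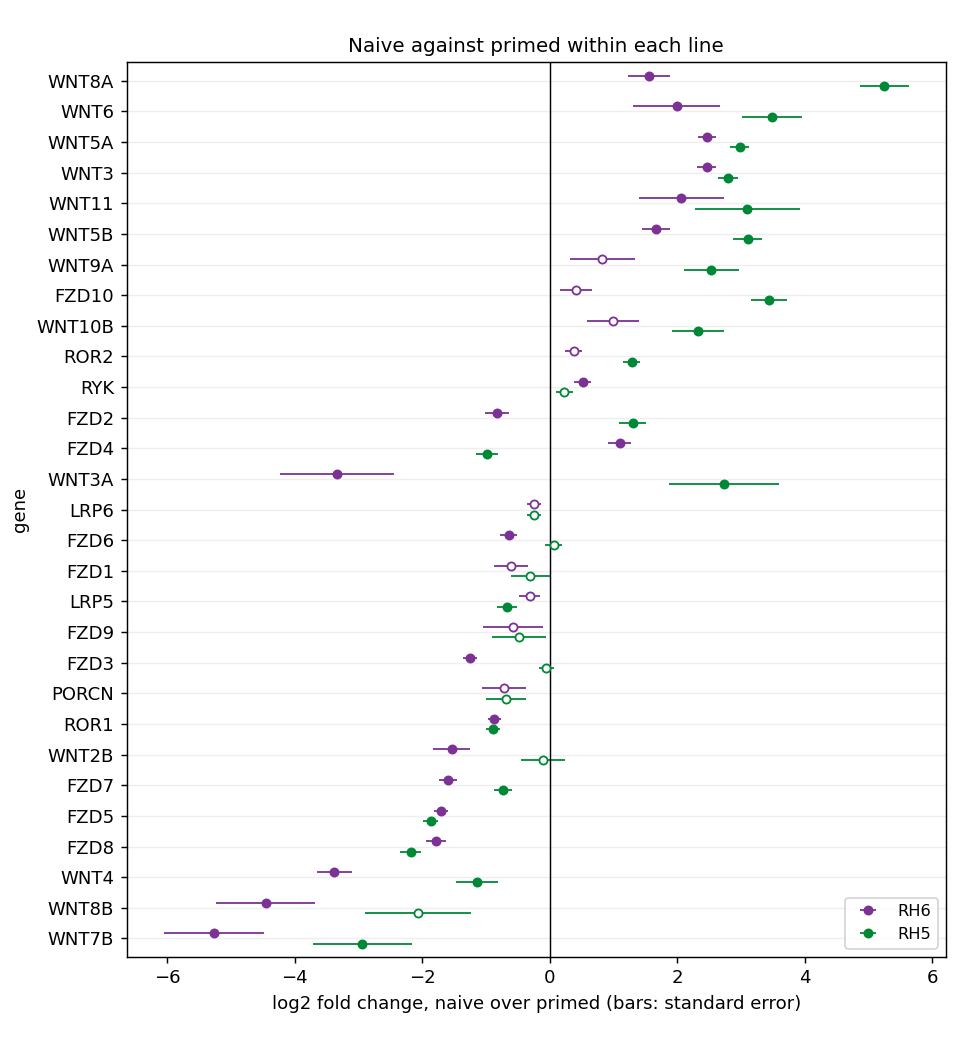
Log2 fold change of naive over primed cells (x axis) within RH6 (purple) and within RH5 (green) for each member tested except WNT10A, whose primed counts were 0 (y axis, ordered by the change over both lines). Bars are standard errors, and filled points were called within that line at an adjusted p under 0.05 while open points were not. For FZD2, FZD4 and WNT3A the points of the lines lie on opposite sides of 0.

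Naive RH6 and naive RH5 were compared directly, each with 2 libraries. Of the 30 members, 3 were higher and 13 lower in naive RH6, while 25.5% of all genes tested were called, 12% higher and 13.5% lower. WNT3 (log2 fold change 0.61 ± 0.10, SE, adjusted p = 0.00160), FZD4 (1.33) and FZD5 (0.42) were the members higher in naive RH6, and FZD5 was no longer called once naive RH5 replicate 1 was left out (adjusted p = 0.0614). The ligands WNT8A, WNT5B, WNT6, WNT9A, WNT10A, WNT3A and WNT10B were lower in naive RH6, with log2 fold changes of -2.02, -1.26, -2.58, -1.97, -2.66, -3.66 and -0.90 in that order, and the receptor FZD10 was lower by a log2 fold change of -1.65. WNT6 and WNT10A are neighbours, and WNT9A and WNT3A are separated by 1 protein-coding gene in the RefSeq annotation of GRCh38.p14. The WNT10B call was lost with DESeq2 (adjusted p = 0.302) and without naive RH6 replicate 2 or naive RH5 replicate 1 or 2 (adjusted p = 0.147, 0.0571 and 0.110 in that order). Its neighbour WNT1 had the same sign at few counts and was not called (log2 fold change -2.14, adjusted p = 0.0587 with no filter on low counts). WNT3 and WNT9B are also neighbours, and WNT9B had at most 12 counts in any library. The passage number also differed, 10 in naive RH6 and 17 in naive RH5, and cannot be told apart from the line.

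The rest of the pathway is given for lists of genes that work beside these ligands and receptors. Over all genes tested 12.1% were called higher and 13.6% lower in naive cells, and the counts of each list stand beside these shares. Of 7 genes of WNT secretion, 3 were higher and 0 lower in naive cells, with a median log2 fold change of 0.35; DESeq2, limma-voom and an unadjusted p under 0.05 also gave 0 lower. WLS (ENSG00000116729), the carrier that every lipid-bearing WNT protein needs to leave the cell, had 159 and 138 CPM in naive RH6 and 244 and 214 CPM in naive RH5, against 34.8 CPM in primed RH6 and 15.4 CPM in primed RH5. It changed by 2.88 ± 0.41 on the log2 scale (SE, adjusted p = 0.00330), and all naive libraries were above both primed ones. The mRNA of the carrier was thus higher in the same libraries in which the summed WNT mRNA was higher. TMED5, a cargo receptor of WNT export, and VPS26A, a subunit of the retromer that recycles WLS, were higher by log2 fold changes of 0.45 and 0.39, and their calls were lost without any 1 of the naive libraries, so that 1 gene of the list was then left, and without primed RH6.

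Secreted antagonists ran both ways. Of 20 tested, 3 were higher and 6 lower in naive cells (median log2 fold change 0.17), while 12.1% of all genes tested were higher and 13.6% lower. SFRP1 (ENSG00000104332), a soluble decoy that resembles the Frizzled ligand-binding domain, had 132 and 123 CPM in naive RH6 and 45.8 and 53 CPM in naive RH5, against 1469 CPM in primed RH6 and 965 CPM in primed RH5. The change was -3.92 ± 0.18 on the log2 scale (SE, adjusted p = 6.63e-05). FRZB and SFRP5, decoys of the same family, were lower by -3.02 and -3.11 on the log2 scale, and the SFRP5 call was lost without naive RH6 replicate 2. SFRP5 had 1, 3, 10 and 3 counts in the naive libraries, against 45 in primed RH6 and 30 in primed RH5, so 1 naive library reached the level of the filter. SOSTDC1, APCDD1 and DKK1, which block LRP co-receptors or ligand binding, were higher by 2.89, 1.37 and 1.18 on the log2 scale. The count called higher was 8 without primed RH6 and 5 without primed RH5. The list as a whole had no single direction.

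In the R-spondin axis, which sets how many Frizzled receptors stay at the surface, 2 of 9 genes were higher and 3 lower (median log2 fold change -0.82). Of all genes tested 12.1% were higher and 13.6% lower. RNF43 (ENSG00000108375), the ubiquitin ligase that removes Frizzled receptors and is itself a target of β-catenin, had 64.5 and 57.3 CPM in naive RH6 and 109 and 109 CPM in naive RH5, against 5.95 CPM in primed RH6 and 4.91 CPM in primed RH5. It changed by 3.88 ± 0.27 on the log2 scale (SE, adjusted p = 2.27e-04), with no overlap between states. The R-spondin RSPO2 was higher by 2.20 on the log2 scale, and RSPO4, RSPO1 and the R-spondin receptor LGR4 were lower by -3.92, -1.45 and -1.07. RSPO4 passed the filter through primed libraries alone, and 2 of the 3 genes called lower had passed it in both states. The median over the 8 genes of the list that passed in both states was -0.36. The calls of RSPO2, RSPO1 and LGR4 were lost without naive RH6 replicate 1 or naive RH5 replicate 1, which left 1 gene higher and 1 lower. Without naive RH6 replicate 2, RSPO1 and LGR4 were lost, without naive RH5 replicate 2 RSPO2 was lost, and without primed RH6 RSPO1 was lost.

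Of 7 further Frizzled partners tested, GPR124 was higher (log2 fold change 2.07) and GPC3 and RECK were lower (-1.47 and -0.54), with a list median of 0.17. In all 42.9% of this list was called, against 25.7% of all genes tested. GPR124 and RECK together let WNT7 ligands act on vessels of the brain. The RECK call was lost without any 1 naive library or primed RH5, and that of GPC3 without naive RH6 replicate 1 or 2. Of 18 cytoplasmic transducers, AMER1 was higher (1.13) and APC2 and FBXW11 were lower (-2.81 and -0.66), with a median of 0.012. The share called, 16.7%, was below the 25.7% of all genes tested. The AMER1 call was lost without any 1 naive library. CTNNB1, the gene of β-catenin itself, was not called, with 460 to 558 CPM in naive libraries, against 452 CPM in primed RH6 and 438 CPM in primed RH5. Of 13 planar polarity genes, 3 were higher and 3 lower (median 0.22), so that 46.2% were called against 25.7% of all genes tested. VANGL1, PRICKLE1 and VANGL2 were higher by 1.67, 1.34 and 0.56, and the adhesion receptors CELSR2, CELSR1 and CELSR3 were lower by -1.24, -1.07 and -0.89. The VANGL2 call was lost without naive RH5 replicate 1 and that of CELSR2 without naive RH6 replicate 1 or 2.

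Nuclear factors of the pathway also split. Of 12 tested, 3 were higher and 4 lower (median 0.067), while 12.1% of all genes tested were higher and 13.6% lower. TCF7 and LEF1, which mostly activate WNT targets, were higher by 1.15 and 0.99 on the log2 scale, as was PYGO1 by 1.5. The co-repressors TLE2 and TLE1 were lower by -5.35 and -1.15, and TCF7L2 by -0.77. TLE2 was near 0 in naive cells, at 2, 1, 2 and 2 counts, against 69 counts in primed RH6 and 89 counts in primed RH5, and passed the filter through primed libraries alone, so that 3 of the 4 genes called lower had passed it in both states. The TLE1 call was lost without any 1 naive library, which left 2 genes lower, the other lost gene being TCF7L1.

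Of 15 genes tested that β-catenin is known to activate, 11 were higher and 0 lower in naive cells, with a median log2 fold change of 2.15. Of all genes tested, 12.1% were higher and 13.6% lower. CDX1, CDX2, CDX4 and EVX1 passed the filter through naive libraries alone and had to be higher to be tested; of the 11 genes that passed in both states 8 were higher, with a median of 1.38. Over the list, 10 to 12 were higher when 1 library was left out. TBX6, a mesoderm factor, was the 1 gene lower at an unadjusted p under 0.05, and 1 gene was called lower without naive RH5 replicate 2 or without primed RH5; DESeq2 and limma-voom called 0 lower. AXIN2 (ENSG00000168646), the most general of these targets, had 112 and 111 CPM in naive RH6 and 200 and 185 CPM in naive RH5, against 56.5 CPM in primed RH6 and 54.7 CPM in primed RH5. SP5 (ENSG00000204335) had 121 and 129 CPM in naive RH6 and 153 and 157 CPM in naive RH5, against 10.9 CPM in primed RH6 and 9.17 CPM in primed RH5. T (ENSG00000164458), the primitive streak factor brachyury, had 52.5 and 60.5 CPM in naive RH6 and 42.6 and 40.8 CPM in naive RH5, against 0.468 CPM in primed RH6 and 1.95 CPM in primed RH5. Naive libraries were above primed ones for all 3 genes, of which AXIN2 and SP5 were chosen after their values were seen. The log2 difference was 5.34 ± 0.47 (SE, adjusted p = 5.43e-04) for T, 3.79 ± 0.17 (SE, adjusted p = 6.63e-05) for SP5 and 1.38 ± 0.20 (SE, adjusted p = 0.00327) for AXIN2. CDX1 had 558 counts over the naive and 2 over the primed libraries, a ratio of 145 after scaling for depth (95% counting interval 39.9 to 1200). CDX2 had 308 counts over the naive and 3 over the primed libraries, a ratio of 53.3 (interval 18.1 to 260.0). CCND1 was not called, with 893 to 994 CPM in naive libraries, against 962 CPM in primed RH6 and 886 CPM in primed RH5.

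**Figure D5:**
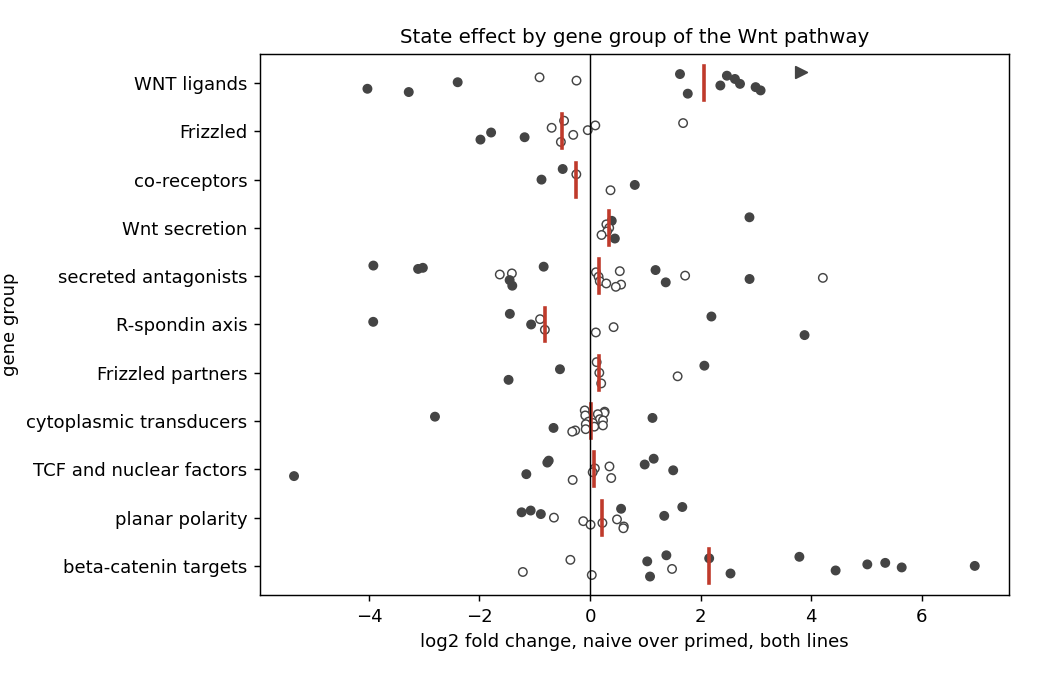
Log2 fold change of naive over primed cells over both lines (x axis) for the tested genes of each group of the pathway (y axis). Filled points were called at an adjusted p under 0.05, open points were not, red bars are medians, and the triangle is the lower bound for WNT10A. The WNT ligand and β-catenin target groups have medians of 2.06 and 2.15, and the Frizzled group has a median of -0.50; over genes that passed the filter in both states the medians are 1.77, 1.38 and -0.50 in that order.

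Summed markers of streak and mesoderm, of fibroblasts and of trophectoderm were higher in every naive library than in both primed ones. The endoderm sums of the naive libraries lay between those of the primed libraries. The 9 primitive streak and mesoderm markers, which include T, MIXL1 and TBX6 of the target list, summed to 321 to 587 CPM in naive libraries, against 84.5 CPM in primed RH6 and 260.0 CPM in primed RH5, and 8 of 9 reached 1 CPM in some library. The 14 fibroblast markers summed to 567 to 1141 CPM in naive libraries, against 279 CPM in primed RH6 and 242 CPM in primed RH5, with 12 of 14 at 1 CPM in some library and DCN and FAP near 0. The 9 trophectoderm markers, which include CDX2 of the target list, summed to 392 to 524 CPM in naive libraries, against 138 CPM in primed RH6 and 185 CPM in primed RH5, with ELF5, VGLL1 and CGB at or near 0. The 6 endoderm markers summed to 33.2 to 54.6 CPM in naive libraries, against 24.5 CPM in primed RH6 and 85.1 CPM in primed RH5. By gene, 3 of 8 streak and mesoderm markers tested were higher in naive cells and 0 lower. Of 12 fibroblast markers, 7 were higher and PRRX1 was lower. Among 6 trophectoderm markers, 3 were higher, CDX2 after passing the filter through naive libraries alone, and KRT7 was lower. Of the 6 endoderm markers, 0 were higher, and HHEX and CXCR4 were lower. Among all genes tested 12.1% were higher and 13.6% lower. The part of these cell types in the levels of WNT3, WNT5A, WNT8A or the targets was not tested.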

How the data were processed

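For each of 6 libraries the authors deposited raw read counts per gene, as whole numbers. The labels' protocols name a stranded kit for total RNA, although the molecule field says polyA RNA. Tools in the submitters' processing notes are FastQC, STAR (2.4.0a), featureCounts (1.4.5-p1, Subread) and DESeq2, with hg19 and GRCh37.p5 as builds; which annotation and strand setting were used is not given in the sources used here. Gene coordinates of that build are not used here. No row was removed, and 0 columns of per-sample values were left unmapped.

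The test was the quasi-likelihood F-test of edgeR (4.0.16, R 4.3.3), with TMM factors of 0.964 to 1.029. Genes were kept by filterByExpr with state as group (minimum count 10, minimum total 15), which here means about 0.71 CPM. Naive against primed over both lines had the line as a covariate and 3 residual degrees of freedom (coefficient of variation 0.189). Contrasts within a line, between the lines' state effects and between naive RH6 and naive RH5 came from a fit with 1 mean per group and 2 residual degrees of freedom (coefficient of variation 0.0964), in which a single primed library is taken to vary like the naive duplicates. P-values were two-sided and adjusted by the Benjamini-Hochberg method over 19434 genes. A standard error is the log2 fold change divided by the square root of F. For 1 gene, the smallest exact one-sided permutation p of 4 naive against 2 primed libraries is 0.0667.

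CPM uses TMM-scaled library sizes, and CPM per kilobase divides by the length of all exons in GENCODE 29. A fold against 0 counts is a bound against a floor of 3 counts per group, and ratios of summed counts carry exact 95% intervals; both cover counting error only. Duplicates differed by more than counting noise (chi-square per gene 9.22 in naive RH6 and 5.76 in naive RH5) and were kept apart. The code was tested on simulated data. Alternatives were DESeq2 1.42.0, limma-voom with limma 3.58.1, RLE and upper-quartile factors, no low-count filter, no line term, each library left out, and each line's naive libraries summed. The members and gene lists were chosen with earlier results of these data known. All members are named, and of each other list up to 3 called genes per direction with the largest log2 fold change over both lines. CTNNB1, CCND1, TBX6, TCF7L1, AXIN2 and SP5 were named after their values were seen.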

Additional observations from a re-analysis of the deposited data

Results flagged for a closer look

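The test of the RH6 state effect minus the RH5 state effect passed an adjusted p under 0.05 for 11 members, which is why each is listed here. Among the ligands the difference of log2 fold changes was -6.07 for WNT3A, -3.69 for WNT8A, -2.24 for WNT4 and -1.43 for WNT5B. WNT8A and WNT5B were higher in naive cells of each line and more so in RH5, WNT4 was lower in naive cells of each line and more so in RH6, and WNT3A was lower in naive RH6 and higher in naive RH5. Among the receptors the difference was -3.02 for FZD10, -2.14 for FZD2, -1.20 for FZD3, -0.86 for FZD7, -0.71 for FZD6, -0.91 for ROR2 and 2.08 for FZD4. FZD2 and FZD4 had opposite signs in the lines. Each value rests on 1 primed library per line, taken to vary like the naive duplicates, so a difference between the lines and variation between single primed libraries cannot be told apart, and the lines also differ in passage number, whose part in the result was not tested. In no group could a single library be tested as standing apart, since no group holds 4 libraries.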

How the results depend on the processing

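Over both lines 10 members were higher and 8 lower. Without a primed library, this comparison gives the state effect of the other line alone. The count higher was 6 with no line term, and 3 were higher and 3 lower when each line's naive libraries were summed, which leaves fewer libraries. Leaving out 1 library gave 6 to 13 higher (6 without naive RH6 replicate 1 or naive RH5 replicate 1) and 6 to 12 lower. The difference between the lines was called for 11 members, 7 with DESeq2 and 10 to 12 with 1 library left out. Naive RH6 against naive RH5 called 16, and 14 to 16 with 1 library left out. RH6 alone called 21, with a range of 19 to 22, and RH5 alone 21, with a range of 20 to 22. Of all genes, 4996 were called over both lines, 1092 with naive libraries summed, and 3327, 3029 and 3017 without naive RH6 replicate 1, naive RH6 replicate 2 or naive RH5 replicate 1, and 6507 without either primed library. DESeq2 called 4036 genes in RH6, 3936 in RH5, 1305 for the difference between the lines and 2856 between the naive groups, against 6528, 6506, 2337 and 4952 with edgeR. The naive replicates share only a number: with 2 pairs, same-numbered libraries deviated together at a correlation of 0.14, and with the number as a replicate block the naive libraries alone gave 21 members, against 16 without it.

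Members near 0 changed sign. Over both lines FZD4 was 0.20 with limma-voom, 0.16 with no line term, 0.065 with libraries summed and -0.98 to 1.10 with 1 library left out. WNT3A was 0.67 with limma-voom, 0.17 with no line term and -3.33 to 2.73 with 1 left out. With 1 left out, FZD2 ranged from -0.83 to 1.30 and FZD6 from -0.65 to 0.064. In RH5, FZD6 was -0.0019 with upper-quartile factors, and WNT2B ranged from -0.32 to 0.082 with 1 left out. For the difference between the lines, upper-quartile factors gave -0.030 for LRP6 and -0.010 for ROR1. With 1 left out it ranged from -0.70 to 0.00022 for FZD1, -0.24 to 0.036 for FZD9, -0.0029 to 0.016 for LRP6, -0.19 to 0.15 for PORCN and -0.021 to 0.062 for ROR1. Between the naive groups WNT11 ranged from -0.20 to 0.54 and WNT2B from -0.0043 to 0.41. The causes were not tested. Depth limits the WNT genes with few counts.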
